A study of Mus musculus with 8 samples.

Results

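The genes described here are those of the oxygen-sensing pathway built around the hypoxia-inducible factors (HIFs), with a pair of mitophagy receptors: Hif1a, Epas1, Hif3a, Arnt, Egln1, Egln3, Vhl, Hif1an, Bnip3 and Bnip3l. They were chosen by symbol, and all 10 have a row among the 23238 gene symbols of the count tables. The RNA was bound to tagged ribosomes pulled down from mouse lung, in 8 libraries of 4 per group. The Sox17-deleted hypoxic mice had the genotype Cdh5-CreERT2;Sox17fl/fl;RPL22tm1.1Psam and spent 3 weeks in hypoxia from 10 weeks of age. The control mice had the genotype Cdh5-CreERT2; RPL22tm1.1Psam and spent the same 3 weeks in room air. All were C57BL/6J mice that had received tamoxifen at 8 weeks of age, 2 mg a day for 5 days. Cdh5-CreERT2 is a recombinase that tamoxifen activates in endothelial cells, and the RPL22 allele adds a haemagglutinin tag to a ribosomal protein wherever the recombinase has acted. The deletion and the hypoxia came together and no group had only one of them, so their parts in any difference cannot be told apart. Nothing in the labels says that each library is a separate mouse, and the column headers of Sox17-deleted hypoxic libraries 2, 3 and 4 share a stem that library 1 lacks. P-values therefore measure the spread between libraries only, part of which may be technical.

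HIFs are transcription factors made of an oxygen-regulated alpha subunit (from Hif1a, Epas1 or Hif3a) and the stable partner ARNT. In well-oxygenated cells the prolyl hydroxylases encoded by the Egln genes mark the alpha subunit, the VHL ubiquitin ligase binds the mark and the protein is destroyed; the asparaginyl hydroxylase encoded by Hif1an separately blocks coactivator binding. This control acts on protein, which RNA counts do not measure. Lung endothelium is known for strong expression of Epas1, which encodes HIF-2 alpha, and in mice endothelial loss of Egln1 causes severe pulmonary hypertension that depends on HIF-2 alpha. Bnip3 is a well-known HIF target, and with Bnip3l it encodes a receptor on the outer mitochondrial membrane that binds LC3 and GABARAP proteins and so marks mitochondria for autophagy.

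The promoters of Bnip3, Egln1 and Egln3 are shown because these members are also known targets of the factors. Each sequence is the 300 bases around the annotated gene start from RefSeq (build GRCm38.p6), written 5′ to 3′ on the gene's own strand. Capitals mark the core letters of the hypoxia response element, ACGTG or GCGTG, on either strand, and a run of 6 capitals is a match on both strands. The windows are chr7:138909457-138909756 (minus strand) for Bnip3, chr8:124949205-124949504 (minus strand) for Egln1 and chr12:54203825-54204124 (minus strand) for Egln3.
Bnip3: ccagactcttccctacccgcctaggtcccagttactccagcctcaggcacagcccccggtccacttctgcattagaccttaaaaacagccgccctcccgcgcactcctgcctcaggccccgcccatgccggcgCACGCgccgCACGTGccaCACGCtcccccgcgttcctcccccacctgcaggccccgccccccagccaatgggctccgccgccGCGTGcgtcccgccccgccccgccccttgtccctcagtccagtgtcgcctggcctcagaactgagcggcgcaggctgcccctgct
Egln1: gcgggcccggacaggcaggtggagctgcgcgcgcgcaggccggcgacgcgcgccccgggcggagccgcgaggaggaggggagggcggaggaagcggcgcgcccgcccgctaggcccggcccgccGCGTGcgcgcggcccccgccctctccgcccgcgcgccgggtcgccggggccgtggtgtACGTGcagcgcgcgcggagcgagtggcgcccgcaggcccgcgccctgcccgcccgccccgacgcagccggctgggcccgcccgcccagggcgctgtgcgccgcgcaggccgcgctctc
Egln3: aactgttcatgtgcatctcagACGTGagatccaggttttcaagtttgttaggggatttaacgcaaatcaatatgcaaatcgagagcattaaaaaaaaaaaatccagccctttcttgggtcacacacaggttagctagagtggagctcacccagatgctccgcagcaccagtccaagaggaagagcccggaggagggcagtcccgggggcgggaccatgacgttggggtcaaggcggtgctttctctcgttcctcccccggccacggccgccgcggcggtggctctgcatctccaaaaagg
The Bnip3 window holds 5 matches, the Egln1 window 2 and the Egln3 window 1. Promoter sequences were found for 8 of the 10 members, not for Epas1 or Bnip3l, and 6 of the 8 hold at least 1 match, the windows of Vhl and Hif1an being without. Over all 32851 promoter windows of this length, 43.8% hold at least 1 match and 1.66% hold at least as many as Bnip3, so a single match is common. A match is a run of letters, not a measured binding site.

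**Figure D1:**
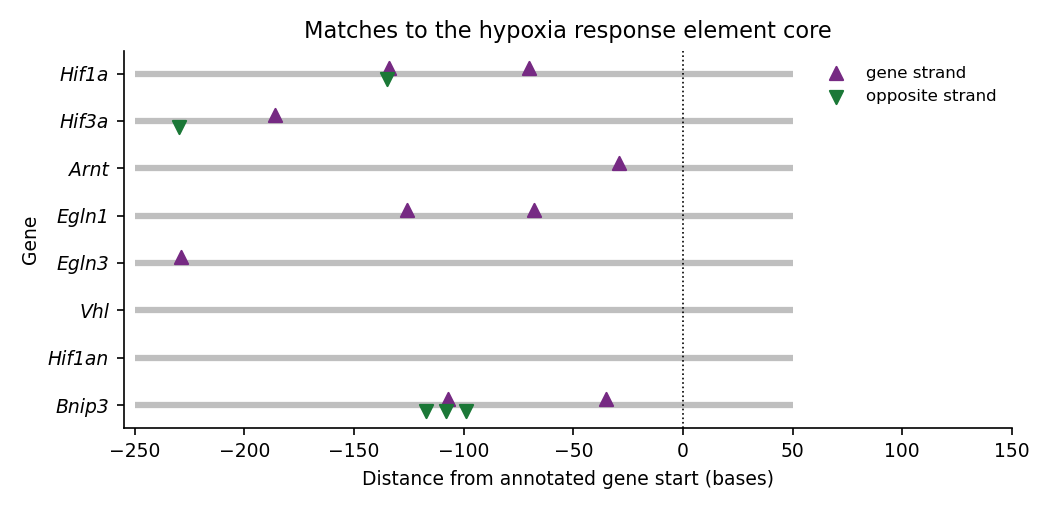
Positions of ACGTG or GCGTG matches in the promoter windows of 8 members, in bases from the annotated gene start (dotted line), with triangles pointing up for the gene's strand and down for the opposite strand. Bnip3 has 5 matches, 4 of them between 117 and 99 bases before the start, while Vhl and Hif1an have 0. Starts are those of RefSeq, and the Hif1a window lies inside the Hif1a span given below, which is from the GENCODE annotation.

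Library totals ranged from 7000313 to 12913304 counts in the Sox17-deleted hypoxic group and from 10567561 to 11884614 in the controls. Levels are given in counts-per-million of the library total (CPM), in which 3 counts, taken as the detection limit, equal 0.232 to 0.429 CPM depending on the library. The QuantSeq kit used reads the 3′ end of each transcript, so counts do not grow with transcript length and levels of different genes can be set side by side. Sox17 itself had 473, 31, 6 and 41 counts in the Sox17-deleted hypoxic libraries, against 3072, 2591, 2442 and 2442 in the controls. Whether the deleted part includes the sequenced 3′ end is not given in the labels. Between 8019 and 8708 genes had at least 1 count in Sox17-deleted hypoxic libraries, against 9821 to 10429 in controls. Of the endothelial markers checked, all 10 were detected, and their summed level was 5342 to 8934 CPM in Sox17-deleted hypoxic libraries and 7173 to 7685 CPM in controls.

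Bnip3 and Epas1 were the members whose groups did not overlap, Bnip3 higher and Epas1 lower in the Sox17-deleted hypoxic libraries. They are 2 of the 8 members tested, where 6.59% of all 8282 tested genes did not overlap (1.63% higher and 4.96% lower). At a mean of at least 100 CPM, which 3 members reach (Epas1, Bnip3 and Bnip3l), 8.58% of genes did not overlap. Hif3a and Egln3, the remaining pair, were at or near 0 counts and did not pass the expression filter. In edgeR's quasi-likelihood test, with p-values adjusted over all 8282 genes by the Benjamini-Hochberg method, 0 members passed 0.05, as did 0% of all genes. As no gene passed, Sox17 did not pass either, although its control counts lay far above those in Sox17-deleted hypoxia. An adjusted p above 0.05 here does not show that a gene was unchanged. An unadjusted edgeR p under 0.05 was found for 2 members, Bnip3 and Epas1, and for 5.12% of genes. DESeq2 called 1 member, Bnip3, and 1.94% of the 7974 genes it gave an adjusted p. limma-voom called 1 member, Epas1, and 0.531% of genes.

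**Figure D2:**
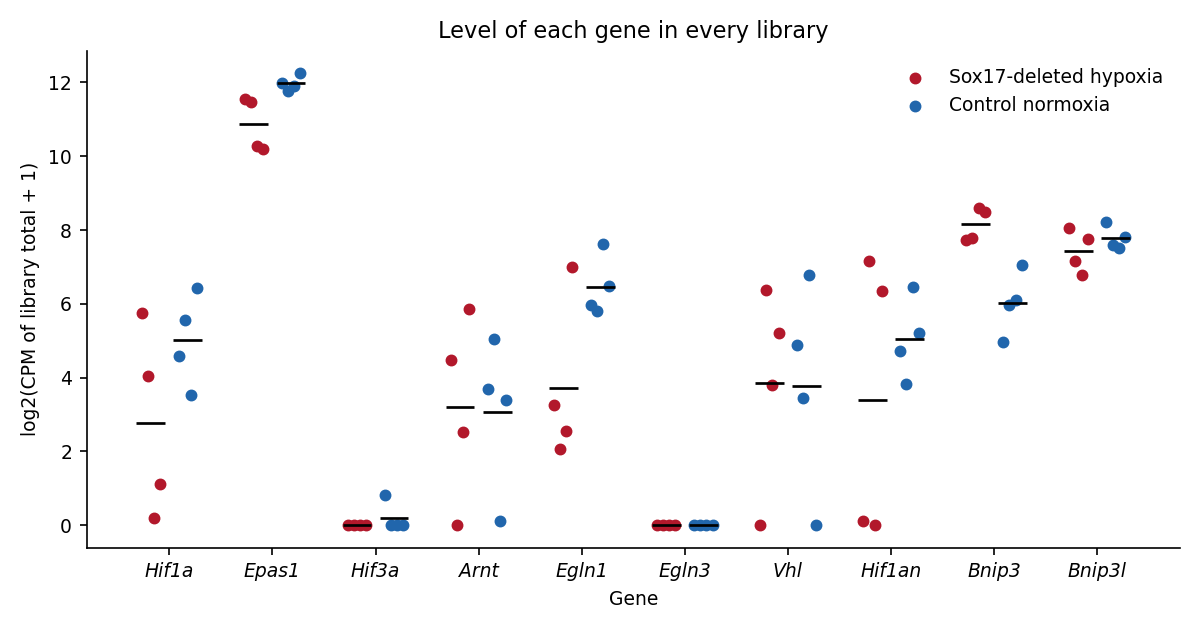
Level of each member in every library as log2(CPM + 1), with 4 points per group and a line at the group mean, Sox17-deleted hypoxia left of control. The groups are apart for Epas1 and Bnip3, overlap for the other tested members, and lie at 0 for Egln3.

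Among the HIF alpha genes, Epas1 (chromosome 17, 86753700 to 86833410, plus strand, GRCm38), which encodes HIF-2 alpha, was by far the most abundant. It had 2994, 2850, 1229 and 1162 CPM in Sox17-deleted hypoxic libraries 1 to 4, against 4040, 3490, 3844 and 4855 CPM in control libraries 1 to 4. Every Sox17-deleted hypoxic library lay below every control, and libraries 3 and 4 lay well below libraries 1 and 2. In the controls Epas1 ranked between place 5 and place 12 of all genes by CPM, and in the Sox17-deleted hypoxic libraries between place 17 and place 98. The means were 2059 ± 999 CPM in Sox17-deleted hypoxic libraries and 4057 ± 579 CPM in controls (SD, n = 4 each), or 1.97-fold lower in Sox17-deleted hypoxia. The edgeR log2 fold change was −0.97 (SE 0.35, 95% interval −1.73 to −0.22), with an unadjusted p of 0.0152 and an adjusted p of 0.594. Across 15 alternative settings its adjusted p lay between 0.0473 (limma-voom) and 1.00 (edgeR without control library 4), and its log2 fold change between −1.21 and −0.77, below 0 in all 15.

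Epas1 was also low relative to the sum of the endothelial markers, of which 4 of 10 tested were higher in Sox17-deleted hypoxia. Divided by the summed level of the 10 endothelial markers, it was 0.377, 0.384, 0.138 and 0.217 in Sox17-deleted hypoxic libraries, against 0.550, 0.486, 0.500 and 0.677 in controls. These ratios do not depend on the library total, and the groups did not overlap. Tek is named here because it is 1 of the 10 markers and also in the list of HIF target genes described below. It had 218 ± 57.7 CPM in Sox17-deleted hypoxic libraries and 291 ± 127 CPM in controls. In the CPM of a pulldown from whole lung, fewer endothelial cells and less RNA per endothelial cell cannot be told apart. The summed endothelial markers averaged 7411 ± 1515 CPM in Sox17-deleted hypoxic libraries and 7345 ± 240 CPM in controls (SD, n = 4 each). The part of endothelial cell number in the Epas1 ratios was not tested. The summed levels of alveolar type 2, club and ciliated, and fibroblast markers were higher in Sox17-deleted hypoxic libraries without overlap. For fibroblast markers the gap was small, with 724 CPM in the lowest Sox17-deleted hypoxic library and 698 CPM in the highest control. Of the 8 fibroblast markers tested, 5 were higher. Of the alveolar type 2 markers, 9 of 10 tested were higher, with a sum of 1990 to 4199 CPM in Sox17-deleted hypoxic libraries and 934 to 1287 CPM in controls, none of the markers being at 0 in a whole group. Summed alveolar type 1, smooth muscle and pericyte, macrophage and monocyte, erythroid and cardiomyocyte markers overlapped between the groups. Erythroid markers were higher in 0 of 6 tested, with a sum of 222 to 3432 CPM in Sox17-deleted hypoxia and 1552 to 2668 CPM in controls. The part of these cells in the level of Epas1 was not tested.

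Hif1a (chromosome 12, 73901375 to 73947530, plus strand), which encodes HIF-1 alpha, stood far below Epas1. It had 52.5, 15.6, 0.143 and 1.16 CPM in Sox17-deleted hypoxic libraries, against 22.9, 46.6, 10.6 and 85.2 CPM in controls. The groups overlapped, and Sox17-deleted hypoxic libraries 3 and 4, the lowest for Epas1, were also the lowest for Hif1a. The log2 fold change was −1.25 with a wide 95% interval of −5.03 to 2.52 and an edgeR adjusted p of 1.00, so these libraries do not settle its direction. The value was −2.97 without Sox17-deleted hypoxic library 1 and −0.64 without control library 4, and −2.91 with limma-voom. A pair of other annotated genes, Gm15283 on the opposite strand and Gm49321, reaches the 3′ end of Hif1a, and their reads may be counted with it. Of all counts on the HIF alpha genes, Epas1 took 98.3% to 99.99% in Sox17-deleted hypoxic libraries and 98.3% to 99.7% in controls.

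Hif3a (chromosome 7, 17031507 to 17062427, minus strand), whose product can limit the activity of the other HIFs, had 0 counts in all 4 Sox17-deleted hypoxic libraries, and 8 counts in control library 1 and 0 in the other control libraries. The 8 counts are 0.757 CPM, and no fold change is given between groups at or near the detection limit. Arnt (chromosome 3, 95434388 to 95497240, plus strand), which encodes the shared partner subunit, had 21.1, 0, 4.71 and 56.8 CPM in Sox17-deleted hypoxic libraries, against 11.8, 31.9, 0.0859 and 9.59 CPM in controls. Each group held a library with 0 or 1 count, and the ranges overlapped throughout. Its log2 fold change of 0.59 had a 95% interval of −4.12 to 5.30 (edgeR adjusted p = 1.00).

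In the oxygen-sensing and degradation arm, Egln1 had the highest control mean of the 4 members, at 99.5 ± 64.8 CPM, against 36.1 ± 61.3 CPM in Sox17-deleted hypoxia (SD, n = 4 each). Egln1 (chromosome 8, 124908587 to 124949324, minus strand) encodes PHD2, the main prolyl hydroxylase acting on HIF alpha proteins. It had 8.52, 3.18, 4.86 and 128 CPM in Sox17-deleted hypoxic libraries, against 61.2, 54.8, 194 and 87.8 CPM in controls. Libraries 1 to 3 of the Sox17-deleted hypoxic group lay below every control, while library 4 lay above 3 of the 4 controls. The log2 fold change was −1.47 (SE 1.17, 95% interval −3.99 to 1.05, edgeR adjusted p = 1.00), and −4.09 without Sox17-deleted hypoxic library 4 (edgeR adjusted p = 0.398). Library 4 also had the highest summed fibroblast markers, at 8851 CPM against 724 to 2285 CPM in the other Sox17-deleted hypoxic libraries and 468 to 698 CPM in controls. Of the 8 fibroblast markers tested 5 were higher in Sox17-deleted hypoxia, and Tcf21 was at 0 there. Their part in the Egln1 level of library 4 was not tested.

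Egln3 (chromosome 12, 54178981 to 54203860, minus strand) encodes PHD3, the prolyl hydroxylase best known for its own induction by hypoxia. It had 0 counts in all 8 libraries. At a limit of 3 counts this allows a level of up to 0.232 to 0.429 CPM in Sox17-deleted hypoxic libraries and up to 0.252 to 0.284 CPM in controls, where these limits cover counting error only. Egln2, which encodes the remaining prolyl hydroxylase PHD1, is in the pathway list described below and had 75.0 ± 55.7 CPM in Sox17-deleted hypoxic libraries and 133 ± 52.9 CPM in controls (SD, n = 4 each, edgeR adjusted p = 1.00).

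Vhl (chromosome 6, 113623959 to 113631633, plus strand) encodes the part of the ubiquitin ligase that recognises hydroxylated HIF alpha. It had 0, 81.7, 12.9 and 36.2 CPM in Sox17-deleted hypoxic libraries, against 28.7, 9.85, 108 and 0 CPM in controls. Hif1an (chromosome 19, 44562850 to 44576274, plus strand), which encodes the asparaginyl hydroxylase, had 0.0774, 143, 0 and 79.7 CPM in Sox17-deleted hypoxic libraries, against 25.5, 13.2, 86.9 and 35.8 CPM in controls. In the Sox17-deleted hypoxic group, 772 counts for Vhl in library 2 stood beside 0 in library 1, and 1347 counts for Hif1an in library 2 beside 1 and 0 in libraries 1 and 3. Vhl has an annotated pseudogene, Vhl-ps1, and another annotated gene, 1700015O11Rik, lies near the Vhl 3′ end, so Vhl counts are uncertain. The log2 fold changes were −0.17 for Vhl (95% interval −4.49 to 4.14) and 0.43 for Hif1an (95% interval −3.32 to 4.17), each with an edgeR adjusted p of 1.00.

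Jumps of this size were common in these libraries. Where the mean lay at 10 to 100 CPM, 64.4% of tested genes had a library with at most 1 count and another with at least 100 counts. Among the 5 members in that range, 4 did: Hif1a, Arnt, Vhl and Hif1an. The coefficient of variation of these 4 genes lay between 110% and 141% in Sox17-deleted hypoxic libraries and between 79.5% and 134% in controls. Median values for genes within 2-fold of their means were 95.5% to 134% in Sox17-deleted hypoxia and 59.7% to 84.9% in controls. Epas1, with a coefficient of variation of 48.5% in Sox17-deleted hypoxic libraries and 14.3% in controls, was the steadiest member in the controls.

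Of the mitophagy receptors, Bnip3 was higher in the Sox17-deleted hypoxic libraries and Bnip3l was not set apart. Bnip3 (chromosome 7, 138890836 to 138909519, minus strand), whose promoter with 5 matches is printed above, had 212, 219, 390 and 355 CPM in Sox17-deleted hypoxic libraries, against 30.4, 61.2, 68.0 and 133 CPM in controls. Even the lowest Sox17-deleted hypoxic library exceeded the highest control. The means were 294 ± 91.9 CPM in Sox17-deleted hypoxic libraries and 73.0 ± 42.9 CPM in controls (SD, n = 4 each), or 4.03-fold higher in Sox17-deleted hypoxia. The edgeR log2 fold change was 2.05 (SE 0.52, 95% interval 0.93 to 3.17), with an unadjusted p of 0.00154 and an adjusted p of 0.346. Across 15 alternative settings its adjusted p lay between 0.0104 (DESeq2) and 0.764 (edgeR with the replicate number as a block), and its log2 fold change between 1.82 and 2.51, above 0 in all 15.

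Bnip3 was also higher against the endothelial markers, at 0.0267 to 0.0665 of their summed CPM in Sox17-deleted hypoxic libraries and 0.00413 to 0.0185 in controls. Against the 3 lists that were higher without overlap, the groups did overlap: Bnip3 was at 0.0521 to 0.183 of the summed alveolar type 2 markers in Sox17-deleted hypoxia and 0.0242 to 0.132 in controls, at 0.0385 to 0.148 of club and ciliated markers in Sox17-deleted hypoxia and 0.0129 to 0.0763 in controls, and at 0.0402 to 0.538 of fibroblast markers in Sox17-deleted hypoxia and 0.0649 to 0.252 in controls. Club and ciliated markers were higher in 5 of 5 tested, with sums of 2634 to 5687 CPM in Sox17-deleted hypoxia and 1293 to 2347 CPM in controls. Ccdc113 of that list was at 0 in all libraries and Cckar at 0 in controls. Their part in the level of Bnip3 was not tested. The annotation places an antisense gene, Gm45507, at the 3′ end of Bnip3, and the labels do not say whether reads were counted by strand, so reads of the pair cannot be told apart.

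Bnip3l (chromosome 14, 66985239 to 67008877, minus strand), also called NIX and known for clearing mitochondria from maturing red cells, had 266, 143, 110 and 214 CPM in Sox17-deleted hypoxic libraries, against 295, 191, 181 and 225 CPM in controls. It has an annotated pseudogene, Bnip3l-ps, so its counts are uncertain. The groups overlapped, and the log2 fold change was −0.28 (SE 0.42, 95% interval −1.19 to 0.63, edgeR adjusted p = 1.00). Bnip3 made up 44.4%, 60.4%, 78.0% and 62.4% of the counts of the pair in Sox17-deleted hypoxic libraries, against 9.34%, 24.2%, 27.3% and 37.1% in controls. The highest control had an exact 95% binomial interval of 35.6% to 38.5%, and the lowest Sox17-deleted hypoxic library, library 1, one of 43.1% to 45.6%. These intervals cover counting error only and leave out the spread between libraries, where controls alone ran from 9.34% to 37.1%. This share is free of library scaling, and the pair was in the same order of abundance in all 4 controls, with Bnip3l above Bnip3, as in Sox17-deleted hypoxic library 1. In Sox17-deleted hypoxic libraries 2, 3 and 4 Bnip3 was the more abundant.

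**Figure D3:**
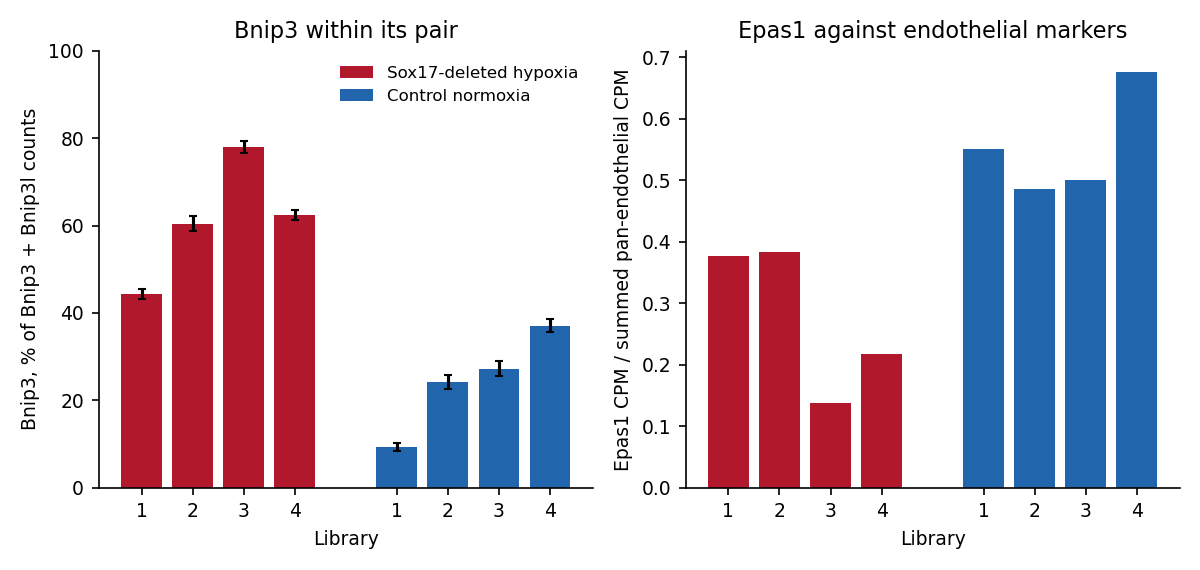
Left, Bnip3 as a percentage of Bnip3 plus Bnip3l counts in each library, with exact 95% binomial intervals; right, Epas1 CPM divided by the summed CPM of 10 endothelial markers in each library. Sox17-deleted hypoxic libraries span 44.4% to 78.0% on the left and 0.138 to 0.384 on the right, controls 9.34% to 37.1% and 0.486 to 0.677.

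The plot of fitted differences sets the 8 tested members side by side. Intervals for Arnt, Vhl, Hif1an and Hif1a span more than a 4-fold difference in either direction, and that of Egln1 reaches from −3.99 to 1.05 on the log2 scale. Those of Epas1 and Bnip3 lie on 1 side of 0 before adjustment over all genes.

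**Figure D4:**
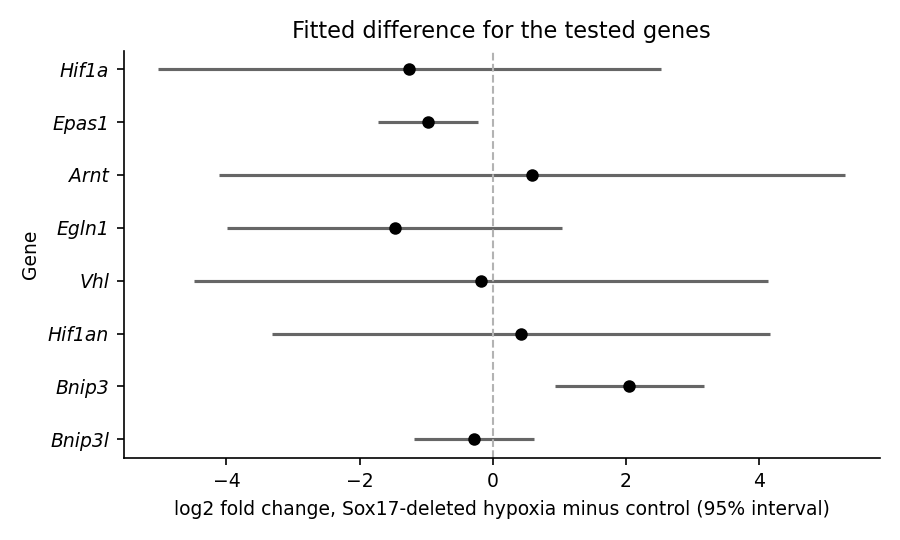
Log2 fold change of each tested member, Sox17-deleted hypoxia minus control, from the edgeR fit, with 95% intervals that are not adjusted for the number of genes. Bnip3 lies at 2.05 and Epas1 at −0.97, and the other intervals include 0.

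Patterns close to those of Epas1 and Bnip3 were searched for among tested genes, leaving out predicted genes and those with symbols ending in Rik. Closeness was the root mean square difference of centred log2(CPM + 1) over the 8 libraries. Of 3628 genes that averaged at least 50 CPM, those closest to Epas1 were Epb4.1, which encodes a membrane skeleton protein (0.230), the BMP receptor gene Bmpr2 (0.231) and Myzap, a cell junction gene (0.257), where the median gene was at 1.15. Epb4.1 ran from 239 to 819 CPM in Sox17-deleted hypoxic libraries and from 662 to 862 CPM in controls, and Bmpr2 from 277 to 757 CPM in Sox17-deleted hypoxic libraries and from 772 to 1584 CPM in controls. Those closest to Bnip3 were Fxyd5 (0.406), Snrnp48 (0.472) and Spats2l (0.509), where the median gene was at 1.57. Fxyd5, which encodes a regulator of the sodium pump, ran from 205 to 373 CPM in Sox17-deleted hypoxic libraries and from 47.0 to 197 CPM in controls.

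Other genes of the pathway were taken from 3 lists. Of 17 tested HIF partners and regulators, 12 were higher and 5 lower in Sox17-deleted hypoxia, with a median log2 fold change of 0.32, where 49.6% of all tested genes were higher and their median was −0.01. The majority turned, to 8 of 17 higher, with limma-voom, with the replicate number as a block and without Sox17-deleted hypoxic library 2. In the edgeR test 0 passed in either direction. The chaperone gene Hsp90ab1, whose product holds HIF alpha proteins in a stable form, had 3786 ± 1452 CPM in Sox17-deleted hypoxic libraries and 1512 ± 305 CPM in controls (edgeR adjusted p = 0.346; DESeq2 0.00102; limma-voom 0.0414). Its relative Hsp90aa1 had 678 ± 335 CPM in Sox17-deleted hypoxia and 309 ± 74.1 CPM in controls (edgeR adjusted p = 0.550). Gnb2l1, which encodes the scaffold RACK1, had 558 ± 248 CPM in Sox17-deleted hypoxia and 348 ± 64.9 CPM in controls (edgeR adjusted p = 1.00). No overlap between the groups was seen for 2 of these 17 genes, where 6.59% of all tested genes did not overlap. Besides Hsp90ab1 this was Os9, a gene named after its values were seen, at 162 ± 14.9 CPM in Sox17-deleted hypoxia and 90.1 ± 37.4 CPM in controls (edgeR adjusted p = 1.00).

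HIF target genes outside the members lay on both sides of 0: 14 of 26 tested were higher and 12 lower, with a median log2 fold change of 0.17, and 0 passed the edgeR test in either direction. With limma-voom and with the replicate block 10 of 26 were higher, so the majority turned. Hilpda, a lipid droplet gene and HIF target, was on the opposite side from Bnip3, at 422 ± 160 CPM in Sox17-deleted hypoxic libraries and 1828 ± 286 CPM in controls (log2 fold change −2.08, edgeR adjusted p = 0.119; DESeq2 7.82e-06; limma-voom 0.00169). The glycolytic gene Aldoa was at 684 ± 244 CPM in Sox17-deleted hypoxia and 383 ± 91.3 CPM in controls (edgeR adjusted p = 0.800), and the VEGF receptor gene Flt1 at 1170 ± 283 CPM in Sox17-deleted hypoxia and 898 ± 151 CPM in controls (edgeR adjusted p = 1.00). Mxi1, a MYC antagonist, was at 96.7 ± 83.7 CPM in Sox17-deleted hypoxia and 24.4 ± 9.72 CPM in controls (edgeR adjusted p = 1.00). No overlap between the groups was seen for 2 of these 26 genes, near the 6.59% of all tested genes: Hilpda, and Ldha, named after its values were seen, which encodes lactate dehydrogenase A and was higher in 4 of 4 Sox17-deleted hypoxic libraries (162 ± 70.5 CPM against 82.8 ± 8.17 CPM in controls, edgeR adjusted p = 1.00).

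Among other mitophagy and autophagy genes, 15 of 25 tested were higher and 10 lower, with a median log2 fold change of 0.16, and 0 passed the edgeR test. With limma-voom and with the replicate block 9 of 25 were higher, so the majority turned. The LC3 genes, whose products Bnip3 and Bnip3l proteins bind, had opposite signs. Map1lc3a was at 735 ± 380 CPM in Sox17-deleted hypoxic libraries and 450 ± 36.6 CPM in controls (edgeR adjusted p = 1.00), and Map1lc3b at 242 ± 126 CPM in Sox17-deleted hypoxic libraries and 515 ± 170 CPM in controls (edgeR adjusted p = 0.950). Bcl2l1, which encodes the survival protein BCL-XL, had 1061 ± 628 CPM in Sox17-deleted hypoxia and 690 ± 138 CPM in controls (edgeR adjusted p = 1.00). The groups overlapped for all 25 tested genes of this list.

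**Figure D5:**
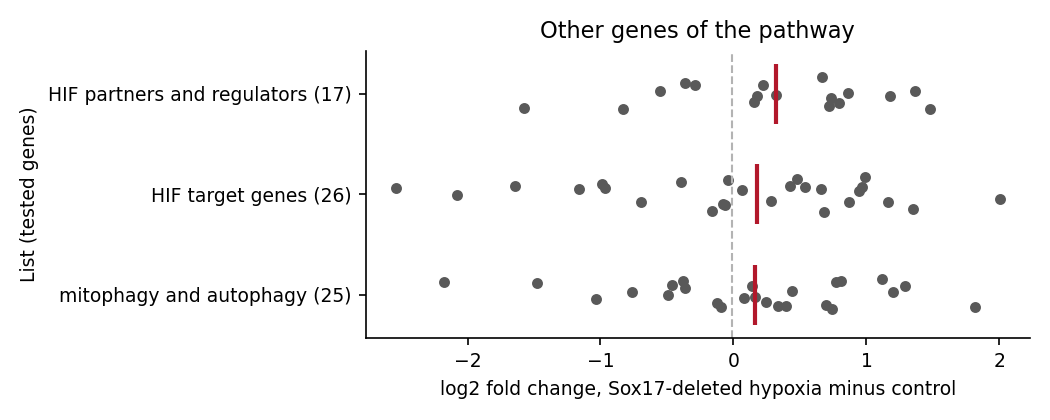
Log2 fold change of each tested gene of 3 pathway lists, Sox17-deleted hypoxia minus control, with a red line at the list median and a dashed line at the median of all tested genes. The medians are 0.32, 0.17 and 0.16, and points lie on both sides of 0 in every list.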

How the data were processed

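Counts per gene symbol were deposited for each of 8 libraries, not normalized. QuantSeq 3′ libraries were made from RNA of immunoprecipitated ribosomes, per the labels' protocols. Bowtie2, bedtools and mm10 are named, per the submitters' processing notes; versions, strand, duplicates and multiple matches are not given in the sources used here, which can change counts of genes with copies or antisense partners. Samples were grouped by title. Each table held 23282 rows; 44 duplicate rows were summed into 23238 symbols. Genes were tested in R 4.3.3 with edgeR 4.0.16 (TMM factors from 0.894 to 1.06, filterByExpr, group alone, quasi-likelihood F test, Benjamini-Hochberg adjustment over all 8282 tested genes, threshold 0.05), after tests on simulated data. The simulated counts varied less between libraries than most tested genes here, so those tests do not show how the methods perform on these libraries. The SE is the size of the fold change divided by the square root of F. Printed CPM uses library totals, without TMM. DESeq2 1.42.0 and limma 3.58.1 were alternatives. Totals were 7000313 to 12913304 counts. Exact binomial intervals of shares cover counting error only. Fold change intervals come from the edgeR fit, which includes the spread between libraries. All pairs of libraries differed beyond sampling noise (chi-square per degree of freedom at least 188).

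Positions come from GENCODE M21 (GRCm38, also called mm10). Members, lists and tests were chosen with earlier results of these data known. Named genes were all members; in each pathway list the called genes, the 3 most abundant, and the 3 with the lowest p at a mean of at least 50 CPM; and the 3 genes closest in pattern to Epas1 and to Bnip3.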

Additional observations from a re-analysis of the deposited data

Results flagged for a closer look

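In 17 member-by-group sets of 4 libraries, a library stood far from the others in 2. The limit used flags about 5% of sets of normally spread values, a rate that does not hold for counts that jump between libraries as these do. Egln1 in Sox17-deleted hypoxic library 4 was at 128 CPM, with the other 3 libraries at 3.18 to 8.52 CPM. Hif3a in control library 1 was at 0.757 CPM, with 0 in the other 3, and rests on 8 counts.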

How the results depend on the processing

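The replicate numbers were not taken to pair libraries: deviations of same-numbered libraries correlated at −0.02 to 0.02 across genes, and 2 of 4 libraries correlated best with their own number. With the replicate number as a block, edgeR called 0 genes and 0 members, the Bnip3 adjusted p was 0.764, and the signs turned for Vhl (0.049) and Hif1an (−3.26). The number of genes called was 0 in the main test, 17 without a filter (10 higher), 155 with DESeq2 (33 higher), 44 with limma-voom (9 higher), and 0 to 5 when a library was left out (0 to 2 higher), the 5 being without Sox17-deleted hypoxic library 1. DESeq2 and limma-voom called 1 member each, Bnip3 and Epas1. In the list of HIF partners and in that of HIF targets, 1 gene each was called without a filter, with DESeq2 and with limma-voom, and 0 when a library was left out. With a library left out, 2 to 3 members had groups that did not overlap, the additional gene without Sox17-deleted hypoxic library 4 being Egln1.

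Bnip3, Epas1, Bnip3l, Egln1 and Hif1a kept their sign in every alternative that gave a value. The sign of Arnt turned with limma-voom (−0.048) and without Sox17-deleted hypoxic library 4 (−0.60). That of Vhl turned without Sox17-deleted hypoxic library 1 (0.22) or 3 (0.06) and without control library 3 (1.27). That of Hif1an turned with limma-voom (−3.35) and without Sox17-deleted hypoxic library 2 (−0.61). Left-out libraries gave log2 fold changes of −2.97 to −0.64 for Hif1a, −0.60 to 1.49 for Arnt, −1.10 to 1.27 for Vhl and −0.61 to 1.08 for Hif1an. Of 17 HIF partners, 26 HIF targets and 25 mitophagy genes tested, 8, 10 and 9 were higher with limma-voom and with the replicate block, in place of 12, 14 and 15; with a library left out 8 to 13, 13 to 16 and 12 to 15 were. The cause was not tested. DESeq2 gave Egln1 no adjusted p.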
